A study of Mus musculus with 84 samples.

Results

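The promoters that carried H3K4me3 were compared between adipocyte nuclei of formerly obese mice and of mice that had never been obese. HHC mice received a high-fat diet for 25 weeks and then 8 weeks of chow diet, and CCC mice stayed on chow diet over the same time, so that both groups were 39 weeks old. All mice were male AdipoERCre x NuTRAP animals on a background the labels write as C576BL6 and the methods as C57BL/N, and had received tamoxifen 2 times at 4 to 5 weeks of age, which makes Cre, driven by the promoter of the adipocyte gene *Adipoq*, switch on a tag on the nuclear envelope. Labelled nuclei were pulled from frozen epididymal adipose tissue (epiAT). In CUT&Tag, the assay used, a transposase is tethered to a histone mark through an antibody and cuts the DNA there. The members are the 5 H3K4me3 peak lists titled HHC replicates 1, 2 and 3 and CCC replicates 1 and 3, out of 21 H3K4me3 lists and 84 lists of all marks. A promoter was the 2000 bp on either side of any transcription start site (TSS) of a protein-coding gene in the basic GENCODE set, and it was marked in a library when a peak overlapped it by 1 bp or more. The full GENCODE set has 54359 start sites and served as an alternative. Of 21851 promoters with 41438 start sites, 12540 (57.4%) were marked in 5 of 5 libraries and 6503 (29.8%) in none. A promoter was called gained when it was marked in 3 of 3 HHC and 0 of 2 CCC libraries, which held for 303 promoters (1.39%), and lost when it was marked in 0 of 3 HHC and 2 of 2 CCC libraries, which held for 82 (0.375%). These are presence rules with no test. Just outside the first rule lay 331 promoters marked in 2 HHC and 0 CCC libraries and 271 marked in 3 HHC and 1 CCC library, and just outside the second lay 196 marked in 1 HHC and 2 CCC libraries and 159 marked in 0 HHC and 1 CCC library.

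H3K4me3 is trimethylation of lysine 4 of histone H3. It sits at the start sites of genes that are active or ready to be transcribed, it is nearly constant at CpG-rich promoters of housekeeping genes, and broad domains of it mark the genes that define a cell type. White adipocytes store triglyceride, which they make from fatty acids taken up from blood or built from citrate by ATP citrate lyase, acetyl-CoA carboxylase and fatty acid synthase. Obese epididymal fat is also rich in macrophages and lymphocytes that surround dying adipocytes, so that nuclei of several cell types lie side by side in the tissue from which labelled nuclei are taken.

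The promoter sequences below are the 250 bases before and 50 bases from the most upstream start site of the basic set, read 5′ to 3′ on the strand of the gene from GRCm38.p6. They are shown so that the kinds of promoter behind the counts can be seen. Capitals mark matches on either strand to 9 short motifs. Sites of PU.1 and other ETS factors, which drive blood cell genes, were searched as GAGGAAGT and those of AP-1, a factor of stress and activation, as TGANTCA. The cyclic AMP response element was searched by its palindrome TGACGTCA, and the E-box bound by USF and related factors as CACGTG. The core of nuclear receptor sites, which PPARγ also binds, was searched as AGGTCA. Core promoter elements were the TATA box in the form TATAAA, the GC box bound by SP1 in the form GGGCGG and the CCAAT box by the letters of its name. The palindrome of NRF1 was the remaining motif, and none of the promoters shown contains it. Pcp2 (chr8:3625496-3625795, minus strand), Mamdc4 (chr2:25571309-25571608, minus) and Nkg7 (chr7:43436823-43437122, plus) are the gained promoters with the highest peaks, Acaca (chr11:84172872-84173171, plus) and Sycp2 (chr2:178407636-178407935, minus) the lost ones, and Itgal (chr7:127296010-127296309, plus), Tlr9 (chr9:106222348-106222647, plus) and C1qc (chr4:136893016-136893315, minus) are gained leukocyte promoters with a PU.1 match, chosen after their values were seen.
Pcp2: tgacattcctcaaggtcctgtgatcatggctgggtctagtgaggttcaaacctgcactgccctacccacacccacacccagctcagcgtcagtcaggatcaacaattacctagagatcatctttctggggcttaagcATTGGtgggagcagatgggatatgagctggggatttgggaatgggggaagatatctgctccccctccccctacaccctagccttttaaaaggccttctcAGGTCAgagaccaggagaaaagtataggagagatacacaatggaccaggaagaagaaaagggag
Mamdc4: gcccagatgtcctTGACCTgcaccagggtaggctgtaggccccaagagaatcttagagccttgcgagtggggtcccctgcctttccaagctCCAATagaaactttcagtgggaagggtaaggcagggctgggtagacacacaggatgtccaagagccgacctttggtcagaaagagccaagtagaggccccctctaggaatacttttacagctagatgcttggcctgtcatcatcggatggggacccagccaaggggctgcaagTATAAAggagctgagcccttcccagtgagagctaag
Nkg7: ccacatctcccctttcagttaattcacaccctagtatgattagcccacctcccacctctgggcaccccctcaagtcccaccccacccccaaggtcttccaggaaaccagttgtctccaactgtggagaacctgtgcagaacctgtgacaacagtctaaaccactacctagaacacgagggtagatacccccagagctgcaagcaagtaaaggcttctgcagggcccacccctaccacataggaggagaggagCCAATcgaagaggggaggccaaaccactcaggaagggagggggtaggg
Itgal: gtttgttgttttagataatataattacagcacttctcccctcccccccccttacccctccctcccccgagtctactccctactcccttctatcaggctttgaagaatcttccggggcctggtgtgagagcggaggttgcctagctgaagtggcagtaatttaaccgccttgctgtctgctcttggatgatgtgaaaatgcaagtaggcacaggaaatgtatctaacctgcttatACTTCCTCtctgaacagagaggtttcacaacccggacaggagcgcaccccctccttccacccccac
Tlr9: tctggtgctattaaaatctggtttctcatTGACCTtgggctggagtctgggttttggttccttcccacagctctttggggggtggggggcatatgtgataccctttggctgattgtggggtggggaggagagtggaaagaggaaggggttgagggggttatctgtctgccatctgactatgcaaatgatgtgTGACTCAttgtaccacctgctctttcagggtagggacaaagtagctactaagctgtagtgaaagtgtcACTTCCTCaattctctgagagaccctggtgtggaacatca
C1qc: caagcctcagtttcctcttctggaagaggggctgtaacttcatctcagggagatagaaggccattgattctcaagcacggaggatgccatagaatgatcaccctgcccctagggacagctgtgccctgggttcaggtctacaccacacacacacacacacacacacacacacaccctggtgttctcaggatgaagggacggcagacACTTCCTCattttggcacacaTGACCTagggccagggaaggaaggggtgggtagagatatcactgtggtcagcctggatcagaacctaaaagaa
Acaca: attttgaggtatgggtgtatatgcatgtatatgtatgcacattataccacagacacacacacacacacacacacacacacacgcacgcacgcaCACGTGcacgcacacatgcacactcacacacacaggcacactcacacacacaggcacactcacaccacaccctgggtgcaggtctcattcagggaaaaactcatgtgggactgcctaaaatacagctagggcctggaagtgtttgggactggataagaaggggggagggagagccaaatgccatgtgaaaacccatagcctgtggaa
Sycp2: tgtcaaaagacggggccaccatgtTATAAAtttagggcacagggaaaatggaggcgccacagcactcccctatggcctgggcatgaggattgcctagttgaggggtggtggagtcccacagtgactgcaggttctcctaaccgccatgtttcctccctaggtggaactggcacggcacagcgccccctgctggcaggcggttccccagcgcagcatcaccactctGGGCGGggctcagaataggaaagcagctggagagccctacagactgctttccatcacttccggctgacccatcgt
All 8 are poor in CpG. The ratio of observed to expected CpG was 0.0514 for Pcp2, 0.133 for Mamdc4, 0.0875 for Nkg7, 0.316 for Itgal, 0 for Tlr9, 0.0962 for C1qc, 0.262 for Acaca and 0.383 for Sycp2. The same held for most promoters that differed between the groups. A ratio above 0.6 was found at 11.6% of gained and 20.7% of lost promoters, against 71.8% of promoters marked in 5 of 5 libraries, 5.83% of those marked in none and 46.4% of all. The letters GAGGAAGT were present at 34 of 303 gained promoters (11.2%), 3.66% of lost promoters, 2.8% of those marked in 5 of 5 libraries, 3.43% of those marked in none and 3.22% of all. Among the 34 were Itgal, Tlr9, Tlr1, C1qc, Ctss, Ccr7, Blk, Btla, Pirb and Csf2rb2. The GC box was present at 27.4% of gained, 29.3% of lost and 64.2% of promoters marked in 5 of 5 libraries, against 44.9% of all. A match is a description of the letters and not a site shown to be bound.

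The libraries were first held against their labels. The HHC lists held 34519, 40883 and 41976 peaks and marked 13647, 14429 and 14309 promoters, and the CCC lists held 33990 and 35414 peaks and marked 13666 and 13791. The mean number of marked promoters was 14128 ± 421 (SD, n = 3) for HHC libraries, against 13728 ± 88.4 (SD, n = 2) for CCC libraries, a difference of 400 (two-sided exact permutation test over 10 splits, p = 0.4, where the smallest possible p is 0.1). The groups overlapped, since HHC 1 lay below both CCC libraries. All 20 adipocyte markers were marked in HHC 1, HHC 2 and both CCC libraries and 15 of 20 in HHC 3, which had no peak at *Adipoq*, *Lep*, *Cidec*, *Cfd* and *Pck1*. At *Adipoq*, which encodes adiponectin, the peak height, that is the highest fragment coverage, which is not scaled between libraries, was 307 in HHC 1, 960 in HHC 2, 0 in HHC 3, 941 in CCC 1 and 1392 in CCC 3. Adipocyte markers took 0.0954%, 0.161% and 0.0244% of the summed promoter height in the HHC libraries and 0.227% and 0.253% in CCC 1 and CCC 3, so that the groups did not overlap in this share. They overlapped in the median height of these markers over the median height of all promoters marked in the same library. This ratio was 0.932, 1.67 and 0.545 in HHC and 1.62 and 1.71 in CCC. The title of CCC 3 places it with CCC, whereas its treatment field names HH, the obese group at 31 weeks, and the treatment field names CCC for the library titled HH 2. By shared peak length, CCC 3 was about as close to CCC 1 (Jaccard index 0.624) as to CC_l 2 (0.617), which the treatment field also places with HH, and by marked promoters the values were 0.946 and 0.947. It reached 0.527 and 0.556 with the libraries titled HH 2 and HH 3 by peak length, while HHC 2 shared 0.522 with CCC 1 and 0.52 with CCC 3, against 0.393 to 0.445 for HHC 1 and HHC 3. Titles were used, and values under the treatment field are given beside the main counts.

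Among the gained promoters on the lists, 50 of 71 belonged to immune lists. Of the 295 genes on the 14 immune lists, 50 were gained (16.9%) and 1 was lost, against 1.39% and 0.375% of all promoters. Of 173 genes on the 11 adipocyte and metabolic lists, 1 was gained (0.578%) and 1 was lost (0.578%). The genes of all 51 lists accounted for 71 of the 303 gained promoters, and 232 (76.6%) were on no list. Leaving out HHC 3, which lacked the adipocyte markers, gave 360 gained promoters, and leaving out CCC 3 gave 412, and the 303 were kept in both, as the rule with fewer libraries is easier to meet. The count passed 1.5 times its value without HHC 1 (473) or CCC 1 (465). When groups followed the treatment field, 93 promoters were gained, of which 72 were among the 303. The full annotation gave 301, of which 291 were among the 303, and *Pax5*, *Fcgr3* and *Col8a2*, named below, were not, since both CCC libraries had a peak at another start site of each.

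The list with the most gained markers of a cell type was that of lymphocytes. Of 20 lymphocyte markers, 9 were gained, among them *Cd3d* and *Cd3g* of the T cell receptor complex, *Cd2*, an adhesion molecule of T and natural killer cells, *Nkg7*, a granule protein of cytotoxic cells, *Cd79a* and *Cd79b*, the signalling pair of the B cell receptor, *Ms4a1*, the B cell antigen CD20, and *Pax5*, the B cell transcription factor. The list was marked at 19, 13 and 15 of 20 promoters in HHC 1, 2 and 3 and at 1 and 1 in CCC 1 and CCC 3. The window shared by *Cd3d* and *Cd3g* had peak heights of 50, 14 and 21 in HHC 1, 2 and 3 and no peak in CCC. *Nkg7*, whose window also covers *Cldnd2*, had heights of 168, 17 and 12, *Cd79a* of 22, 12 and 18, and *Pax5* of 12, 18 and 12, with no peak in CCC. The presence of these peaks in all 3 HHC libraries and in no CCC library follows from the rule that chose them. Without HHC 3, 12 of the 20 were gained, without HHC 2 14, with a 500 bp window or equal numbers of peaks 5, with the strongest 75% of peaks 4 and under the treatment field 1.

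MHC class II genes, which present antigen to helper T cells, came next. Of 11 members 5 were gained, namely *H2-Aa* and *H2-Eb1*, chains of the antigen-presenting molecules, and *H2-DMb2*, *H2-Oa* and *H2-Ob*, which control peptide loading. The list was marked at 10, 10 and 10 promoters in HHC and at 5 and 3 in CCC. *H2-Eb1* had heights of 81, 82 and 12 and *H2-Aa* of 37, 21 and 12 in HHC 1, 2 and 3, and neither had a peak in CCC. Under the treatment field 1 of the 11 was gained.

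Myeloid receptors and pattern receptors followed. Of 38 Fc receptors and myeloid immunoreceptors, 10 were gained, among them the IgG receptors *Fcgr2b* and *Fcgr3*, the lipid-sensing receptor *Trem2*, the mannose receptor *Mrc1*, the inhibitory receptors *Pirb*, *Lilrb4a*, *Clec12a* and *Cd300a*, and the receptor gene *Cd300c2*. The list was marked at 28, 21 and 21 promoters in HHC and 10 and 9 in CCC. Of 22 macrophage markers 6 were gained: *Adgre1*, which encodes F4/80, *Lyz2*, *C1qc*, *Ctss*, *Mrc1* and *Trem2*. *Lyz2*, which encodes lysozyme, had low peaks of 17, 18 and 9 in HHC and none in CCC. *Tyrobp*, the adaptor of many of these receptors, had heights of 79, 18 and 14 in HHC and 17 and 0 in CCC, and it was not gained because CCC 1 had a peak. Of the Toll-like receptor pathway 4 of 23 members were gained, *Tlr1*, *Tlr6* and *Tlr12* and the DNA sensor *Tlr9*, with heights at *Tlr9* of 37, 28 and 23 in HHC and no peak in CCC. None of the 12 granulocyte and mast cell markers was gained. Under the treatment field 1 of the Fc and myeloid receptors, 0 macrophage markers and 0 Toll-like receptor genes were gained, and without CCC 1 there were 10 gained macrophage markers.

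General leukocyte genes and genes of leukocyte movement were also gained. Of 20 pan-leukocyte markers 5 were gained: *Ptprc*, which encodes CD45, the small GTPase *Rac2*, the integrin chains *Itgal* and *Itgb2*, and the adaptor *Fyb*. At *Ptprc* the heights were 48, 27 and 24 in HHC and 0 and 0 in CCC. At *Rac2* they were 68, 28 and 30, and at *Itgal* 33, 23 and 13, again with no peak in CCC. The list was marked at 20, 20 and 19 promoters in HHC and at 14 and 9 in CCC, so many of these genes bore the mark in a CCC library too. Without CCC 1, 10 were gained, and under the treatment field 1. *Selplg* and *Pecam1* of the leukocyte adhesion list, *Ncf1* of the phagocyte oxidase, the complement genes *C1qc*, *Cfp* and *C5ar1*, the chemokines *Ccl3* and *Ccl17*, the chemokine receptor *Ccr7*, the cytokine receptor chains *Il10ra* and *Il2rg*, and the interferon-induced genes *Oas2* and *Ifi205* were also gained. *Icam1*, the ligand of the integrin of *Itgal* and *Itgb2*, was marked in all 5 libraries, with heights of 64, 39 and 33 in HHC and 27 and 20 in CCC.

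**Figure D1:**
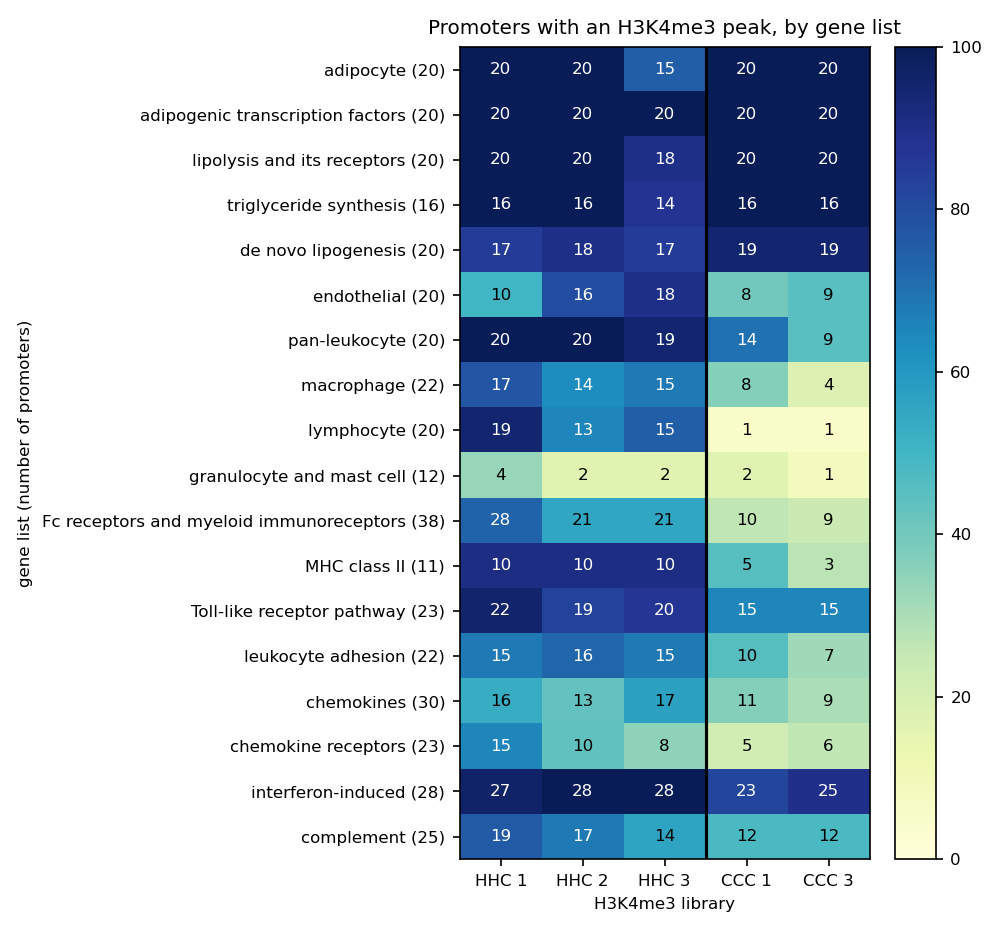
Number of promoters with an H3K4me3 peak in each list (rows, list size in brackets) and library (columns), with colour giving the percentage of the list from 0 to 100. Leukocyte lists were darker in the 3 HHC columns, with 19, 13 and 15 of 20 lymphocyte promoters against 1 and 1 in CCC, and HHC 3 marked 15 of 20 adipocyte promoters.

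Several gene families were counted after their values were seen and are given as description. All 8 Gimap GTPase genes, which support lymphocyte survival, were marked in each HHC library against 3 in CCC 1 and 1 in CCC 3, and 5 of them were gained. Of 9 SLAM family receptors, which tune contacts between immune cells, 9, 7 and 7 were marked in HHC and 1 and 1 in CCC, with *Ly9*, *Cd84*, *Slamf6*, *Slamf7* and *Slamf9* gained. Of 10 T cell co-receptors, 10, 7 and 7 were marked in HHC and 2 and 1 in CCC, and the gained ones were *Cd28*, *Ctla4*, *Tigit*, *Btla* and *Cd96*. Of 22 TNF receptor genes, 6 were gained, among them *Cd40* and the B cell receptors *Tnfrsf13b* and *Tnfrsf13c*. Leukocyte genes on no list were thus among the gained promoters too.

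Some gained promoters were not leukocyte genes. Of 20 endothelial markers 3 were gained, *Pecam1*, the vascular cadherin *Cdh5* and the adhesion receptor *Adgrl4*, and the list was marked at 10, 16 and 18 promoters in HHC and 8 and 9 in CCC. *Cdh5* had heights of 20, 33 and 20 in HHC and no peak in CCC. Without HHC 1, 6 endothelial markers were gained, and under the treatment field 0. *Mfap5*, a microfibril gene of stromal progenitors, had heights of 17, 15 and 24, and *Tubb3*, a neuronal tubulin, of 26, 18 and 12, with none in CCC. *Slc27a2*, a fatty acid transport protein, was the gained gene of the thermogenic list, with heights of 11, 17 and 14. *Adgrg5* and *Adgrf5* joined *Adgre1* and *Adgrl4* among 4 gained of 27 adhesion G protein-coupled receptors. *Col8a2*, *Mmp25*, *Kcnn3*, *Hoxb9*, *Cyp2s1* and *Cyp2ab1* were gained among structural, channel, homeobox and cytochrome P450 genes. Of 383 solute carriers 7 were gained (1.83%) and 4 lost (1.04%), and the gained were *Slc5a5*, *Slc6a16*, *Slc14a1*, *Slc15a3*, *Slc27a2*, *Slc28a2* and *Slc39a4*.

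Most gained peaks were small. Relative to the library median of the promoters marked in 5 of 5 libraries, the median height of gained promoters was 0.429 in HHC 1, 0.158 in HHC 2 and 0.444 in HHC 3, and only 10, 3 and 4 of the 303 exceeded that library median. Among the tallest were *Pcp2* (162, 214 and 64), *Mamdc4*, whose window also covers *Phpt1* (17, 223 and 67), *Nkg7*, the RIM-binding protein gene *Tspoap1* (109, 36 and 34), the iodide transporter *Slc5a5* (22, 248 and 15), *H2-Eb1*, *Rac2*, *Arhgap25* (59, 39 and 29), *Cd37* with *Slc6a16*, which share a window (63, 41 and 26), *Ifitm5* (16, 100 and 32) and *Gimap8*. *Pcp2*, a cerebellar gene, was gained by the edge of a peak that all 5 libraries had at the neighbouring *Xab2* and *Pet100*. Its nearest base lay 1754, 1832 and 1832 bp from a start site of *Pcp2* in HHC and 2230 and 2179 bp in CCC, with heights of 202 and 291 there. Of the 303, 29 (9.57%) had a peak within 2000 bp beyond the window in both CCC libraries and 85 (28.1%) within 10000 bp, and the median distance to the nearest CCC peak was 17238 bp. No share over all promoters was computed for these distances. Distance does not show whether an HHC peak and a nearby CCC peak are the same, so the number of gained promoters made by such edges was not tested. Of the gained promoters, 35 (11.6%) shared a window with another gene, against 17% of all promoters.

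Some cell-type lists also differed between the groups. HHC libraries had more leukocyte and endothelial markers marked, and a lower share of summed height at adipocyte markers, than CCC libraries, as given above. In H3K27ac lists of the same groups and replicate numbers, lymphocyte markers were marked at 18, 2 and 9 of 20 promoters in HHC 1, 2 and 3 and at 1 and 0 in CCC, pan-leukocyte markers at 19, 13 and 18 against 6 and 3, and adipocyte markers at 20, 20 and 14 against 20 and 20. In H3K4me1 lists, lymphocyte markers were marked at 11, 1 and 7 promoters in HHC and 0 and 1 in CCC. Macrophage markers overlapped between the groups in these marks. Of 22, they were marked at 17, 7 and 10 promoters in HHC and 7 and 2 in CCC for H3K27ac. For H3K4me1 the counts were 7, 5 and 6 against 2 and 6. HHC 2 was the HHC library with the fewest lymphocyte marks in all 3 marks. HHC 1 had the most, with 19, 18 and 11 of 20 in H3K4me3, H3K27ac and H3K4me1. HHC 1 and HHC 2 each had all 20 adipocyte markers in H3K4me3 and H3K27ac. The part of other cell types in the gained promoters was not tested, and in pulled nuclei a change inside adipocytes and a change in the mix of nuclei cannot be told apart.

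Lost promoters did not gather on the immune lists, where 0.339% of the 295 genes were lost, against 0.375% of all promoters. On the adipocyte and metabolic lists 1 of 173 genes was lost (0.578%). The 82 lost promoters had 18 members on any list (22%), near the share of the gained promoters (23.4%). The lists hold 3542 of the 21851 genes. *Acaca*, which encodes acetyl-CoA carboxylase 1, the committed step of fatty acid synthesis, had the tallest lost peaks (140 in CCC 1 and 187 in CCC 3) and was the lost gene of 20 on the de novo lipogenesis list. *Sycp2*, a meiotic chromosome protein, had heights of 124 and 159 in CCC, *Ocstamp*, a fusion protein of osteoclasts, 82 and 93, the morphogen *Shh* 52 and 78, the ferroxidase *Hephl1* 51 and 51, the carotene-cleaving enzyme *Bco1* 58 and 30, and *Higd1b*, a mural cell marker, 51 and 37, and none of these promoter windows had a peak in an HHC library. Other lost list members were *Masp1* of complement, whose window also covers *Rtp4*, the fructose transporter *Slc2a5*, *Slc25a18*, *Slc9a3* and *Slc44a4*, *Cyp17a1* of steroid synthesis, the potassium channels *Kcnb2* and *Kcnk16*, *Krt79*, *Col22a1*, *Adamts19*, *Zfp957* and 4 of 1092 olfactory receptor genes. The median height of lost promoters over that of the promoters marked in 5 of 5 was 0.233 in CCC 1 and 0.157 in CCC 3. Leaving out HHC 3 gave 109 lost promoters, while leaving out HHC 2 gave 243, CCC 1 182 and CCC 3 141. The treatment field gave 32, with 23 of the 82 among them and *Acaca* not. The full annotation gave 84, with 80 of the 82 among them and *Acaca* not. With the strongest 75% of peaks 28 of the 82 were kept.

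At *Acaca* the call belonged to certain start sites and not to the gene. The CCC libraries had a broad domain over the upstream start site of the basic set, and the HHC libraries had short peaks further inside the gene. In CCC it covered chr11:84172475-84187204 (14730 bp) in replicate 1 and chr11:84172638-84186234 (13597 bp) in replicate 3, from that start site (84173122) into the gene. In HHC the nearest main peak within that stretch spanned 2454, 4014 and 2643 bp, with heights of 57, 73 and 33, and began 5507, 5414 and 5421 bp from it. The full annotation has further start sites at 84129672, upstream of the others, with peaks of 48, 102 and 22 in HHC and 56 and 128 in CCC, and at 84179831 and 84179858, which the HHC peaks inside the gene overlap within 2000 bp. *Acaca* was thus marked in all 5 libraries at these starts, and was without the mark in HHC within 2000 bp of 84173122 and of 84195438. In CCC the highest peaks within 2000 bp of 84195438 had heights of 43 and 45 and lay 978 and 1992 bp from it. The CCC peaks nearest to 84195438 had heights of 25 in replicate 1 and 14 in replicate 3. HHC 2 had a peak of height 28 at 2305 bp from 84195438, just outside the window.

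Several genes differed at only some of their start sites, which the rule of 1 value per gene hides. Start-site windows that did not overlap were therefore counted separately, a choice made after the data were seen. Among 3982 windows of 1770 genes that had more than 1 window and were marked in 5 of 5 libraries, 64 (1.61%) were gained and 18 (0.452%) were lost. *Gpam*, which encodes the mitochondrial acyltransferase that starts triglyceride synthesis, was marked in all libraries, with heights over the whole gene of 44, 155 and 30 in HHC and 100 and 211 in CCC. These heights are not scaled. The library medians of the promoters marked in 5 of 5 were 63, 120 and 36 in HHC and 118 and 169 in CCC. The upstream start sites of *Gpam* (chromosome 19, 55127203 and 55127216) had peaks of 94 and 95 in CCC 1 and CCC 3 and no peak in HHC, while the start site 27765 bp downstream was marked in all 5. *Mpc1*, the mitochondrial pyruvate carrier, lost a downstream window with heights of 107 and 85 in CCC, *Lpin1*, a phosphatidate phosphatase of triglyceride synthesis, a window with heights of 36 and 42, and *Me1*, the malic enzyme that supplies NADPH for lipogenesis, a window with heights of 22 and 21. Each of these genes kept another window marked in all 5 libraries. The other 14 windows lost belonged to *Ebf3*, *Sox6*, *Samd4*, *Mb*, *Rtp4*, *Sytl3*, *Gda*, *Osbpl1a*, *Tex45*, *Nudt3*, *Zfp958*, *Fam171a1*, *Blvrb* and *Ank2*. No enrichment was tested.

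The 64 gained start-site windows lay in genes that, apart from *Dnajc6*, had another window marked in 5 of 5 libraries. The highest by relative height were at *Lpcat1* (63, 172 and 32 in HHC), *Nedd9* (91, 55 and 41), *Mndal* (62, 50 and 34), *Osr2* (45, 64 and 37), *Rnf146*, *Dennd1b*, *Spata13*, *Gbp9*, *Elf1* (53, 45 and 22) and *Taok3*, with no CCC peak. Signalling genes of leukocytes were among the rest, such as *Lck* (39, 14 and 16), the kinase of the T cell co-receptors, *Syk* (32, 24 and 13), the kinase of Fc and B cell receptors, *Csk* (32, 11 and 14), *Plek* (40, 26 and 19), *Dock10* and the peptidoglycan sensor *Nod2* (31, 25 and 22), named here after their values were seen. The upstream window was the gained one at *Lck* and *Csk*. Without HHC 3 there were 73 gained and 27 lost windows, without CCC 3 97 and 31, without CCC 1 99 and 41, without HHC 1 108 gained and without HHC 2 63 lost. Under the treatment field there were 16 and 7, of which 12 and 4 were the same windows.

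**Figure D2:**
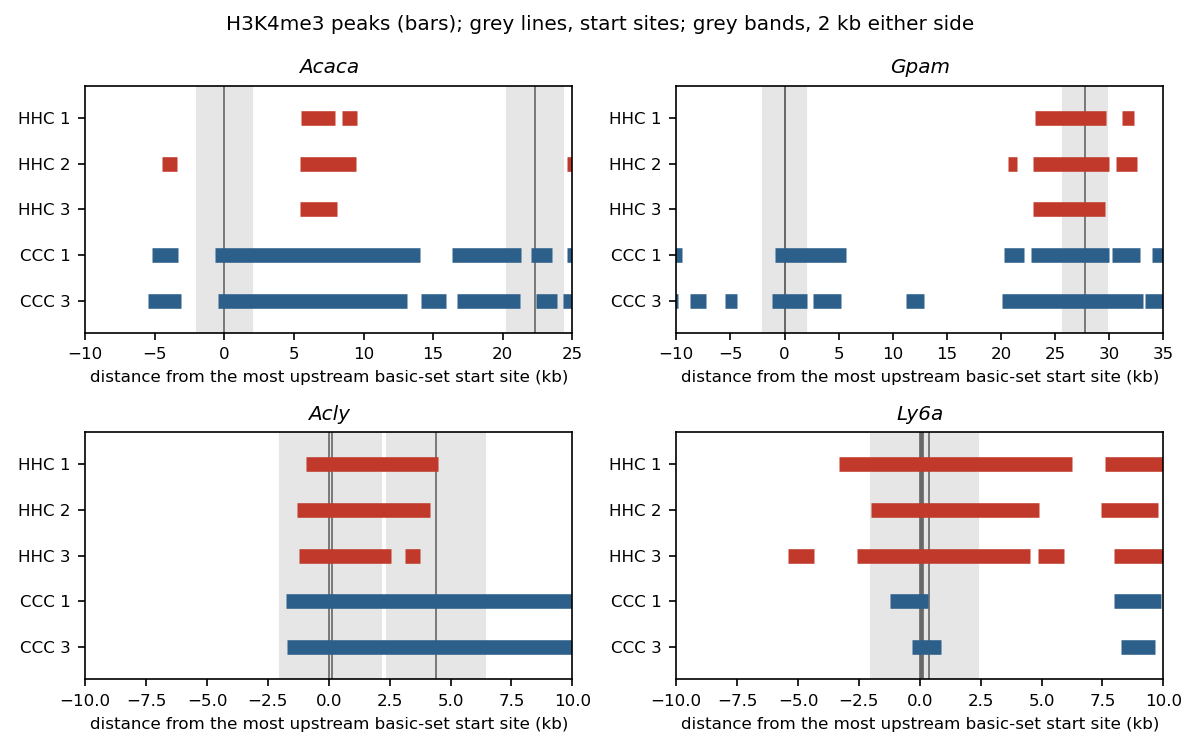
H3K4me3 peaks (bars; red, HHC; blue, CCC) by distance in kb from the most upstream start site in the basic set of *Acaca*, *Gpam*, *Acly* and *Ly6a*, with start sites as grey lines and 2 kb either side shaded. The CCC domain at *Acaca* spans 14730 and 13597 bp, the upstream *Gpam* start sites have a peak in CCC only, the *Acly* peak is shorter in HHC, and the *Ly6a* peak is longer in HHC.

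Among the 12540 promoters marked in 5 of 5 libraries, peak height was compared as the log2 of the height over the library median of these promoters. Limma called 46 promoters higher in HHC (0.367% of those tested) and 4 lower (0.0319%) at an adjusted p under 0.05, and 1248 had an unadjusted p under 0.05. The 46 lay at 37 loci, since neighbours such as *Ifit1* and *Ifit1bl2* or *Hcst* and *Nfkbid* share a peak. Immune and interferon-induced genes were among them. *Apobec3*, an antiviral cytidine deaminase, was at 0.99, -0.11 and 0.85 in HHC 1, 2 and 3 and -1.36 and -2.19 in CCC 1 and 3, a difference of 2.35 (SE 0.33, adjusted p = 0.00157). *Rftn1*, a lipid raft protein of lymphocytes, was at 0.87, -0.21 and 0.64 against -1.71 and -2.59, a difference of 2.58 (SE 0.35, adjusted p = 0.00127). *H2-Q6*, a class I antigen gene, was at 1.12, 0.01 and 0.38 against -1.18 and -1.27, a difference of 1.73 (SE 0.29, adjusted p = 0.0069). At all 3 genes every HHC library lay above both CCC libraries. The same held at *Prrt2* (difference 2.86, adjusted p = 0.000462), *Sytl3* (2.67), *9930111J21Rik2* (2.88), *Lrrc73* (2.37), *Ulbp1*, a ligand of the activating receptor NKG2D (2.52), *Capg*, an actin capping protein of macrophages (2.49), and *Tbx6* (2.37), the others of the 10 with the smallest p. *Prrt2* shares its window with *Pagr1a*, and *Sytl3* with *Dynlt1f*, and at *Sytl3* the CCC peaks lay at another start site, a window that is among the lost ones above. Past the threshold were also the interferon-induced *Ifit1* (1.90), *Ifi203* (2.63), *Mndal* (2.65) and *Sp100* (2.36), *Tnfsf10*, which encodes TRAIL (2.10), the lymphocyte regulator *Prdm1* (1.18), the granule proteoglycan *Srgn* (1.76) and the replication gene *Mcm2* (1.36). *Ifit1* was the called gene of the interferon list, in which 21 of 23 members tested had a positive difference.

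Promoters lower in HHC were few. *Fads3*, a fatty acid desaturase gene, was at 0.31, 0.27 and -0.58 in HHC and 1.43 and 1.34 in CCC, a difference of -1.39 (SE 0.25, adjusted p = 0.0136). *Rnf144b*, a ubiquitin ligase, was at -1.02, -1.52 and -0.85 against 0.22 and 0.70 (-1.59, SE 0.30, adjusted p = 0.0174). *Nos3*, endothelial nitric oxide synthase, was at -1.33, -0.63 and -1.47 against 0.26 and 0.24 (-1.39, SE 0.31, adjusted p = 0.048), and *Agt*, angiotensinogen, at -1.73, -1.03 and -1.36 against 0.06 and 0.17 (-1.49, SE 0.33, adjusted p = 0.048). All HHC libraries lay below both CCC libraries at these 4 genes. The next by p did not pass, namely the citrate carrier *Slc25a1* (-0.93, adjusted p = 0.072), *Adamts1* (-0.98), the glycogen phosphorylase *Pygl* (-0.92), the lipid droplet protein *Plin5* (-1.21), *Cdc42ep1* (-1.02) and *Smim1* (-0.97, adjusted p = 0.0822). The 50 calls depended on the libraries, with 19 called without HHC 1, 512 without HHC 2, 17 without HHC 3, 132 without CCC 1 and 31 without CCC 3. Using summed signal for height, limma without its trend and robust options, or the treatment field left 1 call each.

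**Figure D3:**
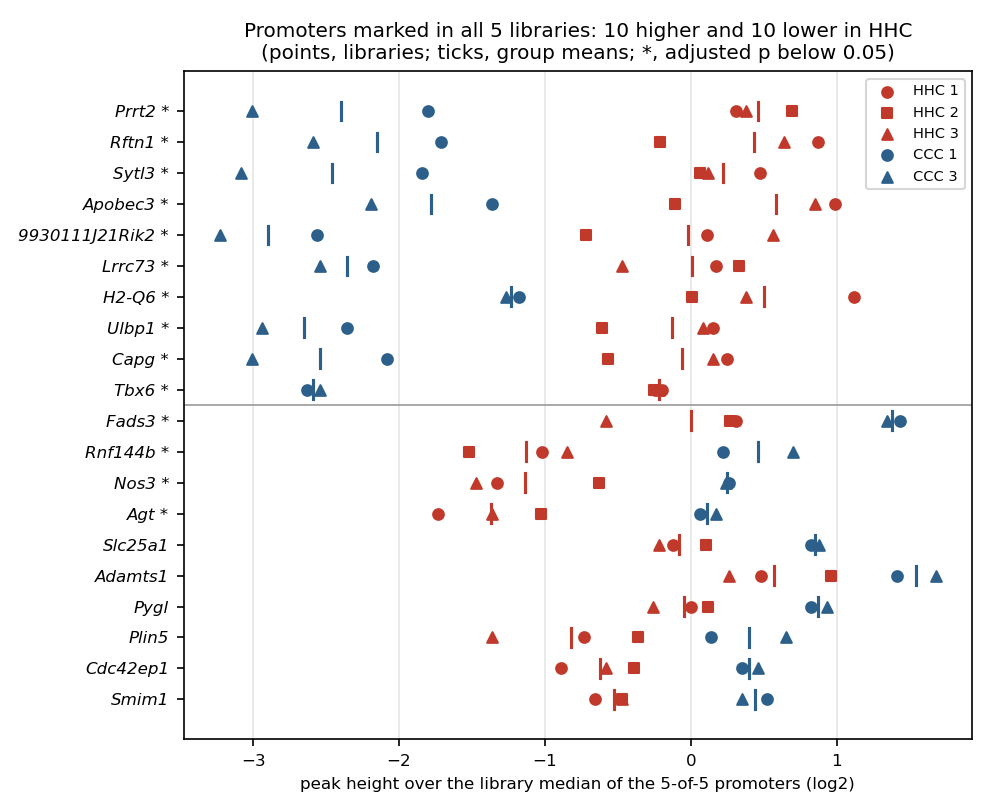
Peak height over the library median of the promoters marked in 5 of 5 libraries (log2, horizontal axis) for the 10 promoters with the smallest p in each direction, with a point per library and ticks at the group means. Asterisks mark adjusted p under 0.05 in limma, which holds for all 10 above the line and for *Fads3*, *Rnf144b*, *Nos3* and *Agt* below it.

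Medians of the gene lists differed in this measure, although few members passed the test. The median difference over all 12540 promoters was 0.02. It was -0.77 over the 15 adipocyte markers tested, all 15 negative and none called, -0.45 over 20 adipogenic transcription factors (14 negative), -0.25 over 16 de novo lipogenesis genes (14 negative), -0.28 over 14 fatty acid uptake genes (12 negative), -0.29 over 14 triglyceride synthesis genes and -0.27 over 18 lipolysis genes. It was -0.03 over 15 fatty acid oxidation genes and -0.09 over 22 insulin signalling genes. The adipocyte markers without a peak in HHC 3 were not tested. In the ratio given above over all 20 adipocyte markers, HHC 2 (1.67) lay between the CCC libraries (1.62 and 1.71). HHC 1 (0.932) and HHC 3 (0.545) lay below both. Of the immune lists, the median was 1.14 over 9 pan-leukocyte genes (8 positive), 0.88 over 8 Fc receptors and myeloid immunoreceptors (all 8 positive) and 0.69 over 23 interferon-induced genes. It was -0.12 over 4 macrophage markers, -0.07 over 5 chemokines, 0.00 over 19 cytokines and receptors, 0.09 over 15 Toll-like receptor pathway genes and 0.12 over 9 complement genes, so that not all immune lists lay above the median. Ribosomal protein (-0.03, 80 tested), proteasome (0.02, 37 tested) and respiratory chain promoters (-0.01, 86 tested) lay near the median of all, with 0 called. *Cyp2e1*, a cytochrome P450 of fat and liver, had heights of 15, 54 and 0 in HHC and 81 and 163 in CCC, and *Acacb*, acetyl-CoA carboxylase 2, 43, 71 and 0 against 129 and 162. HHC 3 had no peak at either, the library that also lacked *Adipoq*.

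Breadth, the share of the promoter windows of a gene covered by peaks, gave no call in limma (0% of 12540 tested, smallest adjusted p 0.211, 1132 with an unadjusted p under 0.05). The median difference over all promoters was 3.47 percentage points. *Ly6a*, which encodes the progenitor and lymphocyte antigen Sca-1, was covered to 100%, 99.7% and 100% in HHC and 35.2% and 26.5% in CCC, the smallest p among increases (difference 69, SE 6.91 percentage points, adjusted p = 0.211). *Acly*, ATP citrate lyase, was covered to 63.4%, 63.6% and 51.2% in HHC and 96.8% and 96.5% in CCC, and *Gpam* to 48.9%, 49.9% and 47.5% against 86.2% and 89.3%. *Angptl8*, an insulin-induced regulator of lipoprotein lipase, was covered to 37.9%, 44.3% and 25.3% against 92.9% and 80%. The groups did not overlap at any of these 4 genes, and none passed the correction. The other 9 increases with the smallest p were at *Apobec3*, *AI467606*, *Egr3*, *Vpreb3*, *Pym1*, *Rcsd1*, *9930111J21Rik2*, *Gm10643* and *Ppm1j*, and the other 7 decreases at *Mpzl2*, *Hoxb3*, *Mb*, *Gm20538*, *Stoml2*, *Popdc2* and *Clu*. The list medians were -14.8 percentage points for adipocyte markers and -7.18 for de novo lipogenesis, and 27.3 for MHC class II, 23 for interferon-induced genes, 20.5 for Fc receptors and myeloid immunoreceptors and 16.1 for pan-leukocyte genes.

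Whether the same promoters differed in other animals was asked in the 16 remaining H3K4me3 libraries, which the rule did not use. By title, HH and CC_l mice were 31 weeks old, H and C mice 18 weeks, and HC and CC_s mice 26 weeks. Each contrast thus compared mice of the same age, younger than the 39 weeks of HHC and CCC. The share of all promoters marked was 63.3% and 63.8% in HH and 62.8% in both CC_l libraries, 54.9%, 55.4% and 41.7% in H and 57.5%, 60.6% and 57.9% in C, and 53.7%, 50.8% and 58.1% in HC and 46.4%, 47.9% and 55.3% in CC_s. Gained promoters were marked to 76.2% and 67% in the obese HH libraries of the 25-week cohort and to 29% and 22.8% in their controls (CC_l). In the 12-week cohort they were marked to 31.4%, 40.3% and 0.33% in obese H libraries against 10.2%, 18.2% and 19.1% in C, and to 3.96%, 3.3% and 47.2% in HC libraries, taken after weight loss, against 0%, 0% and 0.33% in CC_s. The mean difference over the 3 contrasts was 24 percentage points (two-sided exact permutation within contrasts, 2400 splits, p = 0.0317, adjusted p = 0.0317 over 2 sets, smallest possible p 0.000833). Diet libraries lay above all their controls in the 2 HH libraries, 2 of 3 H libraries and 3 of 3 HC libraries, with H 3 below all 3 controls. Lost promoters were marked to 28% and 45.1% in HH against 39% and 70.7% in CC_l, to 0%, 2.44% and 0% in H against 14.6%, 31.7% and 14.6% in C, and to 2.44%, 0% and 2.44% in HC against 0%, 2.44% and 17.1% in CC_s. Their mean difference was -14.2 percentage points (same exact permutation test, p = 0.0158, adjusted p = 0.0317), and only the H libraries lay apart from their controls. Of the 303 gained promoters 93 (30.7%) were also marked in 2 of 2 HH and 0 of 2 CC_l libraries, against 1.32% of all promoters, and of the 82 lost 10 (12.2%) showed the reverse, against 0.481% of all.

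Both differences depended on the titles. The treatment field disagrees with the title for HH 2, HH 3 and CC_l 2 too, and under it the mean differences were -0.657 percentage points for gained promoters (exact permutation test, adjusted p = 0.842) and -4.51 for lost promoters (exact permutation test, adjusted p = 0.842). With the promoters chosen without CCC 3 they were 20.5 and -9.57 percentage points (adjusted p = 0.0533 for each in the exact permutation test). Lymphocyte marker counts followed the share of gained promoters only in part. Lymphocyte markers were marked at 9 and 7 of 20 promoters in HH 2 and HH 3, at 3 and 1 in CC_l, at 1, 2 and 0 in H 1 to 3 and at 2, 1 and 5 in HC 1 to 3, and HC 3 was the HC library with the most gained promoters. H 1 and H 2 marked 31.4% and 40.3% of the gained promoters with 1 and 2 lymphocyte markers, and HC 1 marked 3.96% with 2. Lymphocyte counts in C and CC_s are not given here, so no contrast of the 12-week cohort is read. The part of these markers was not tested.

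**Figure D4:**
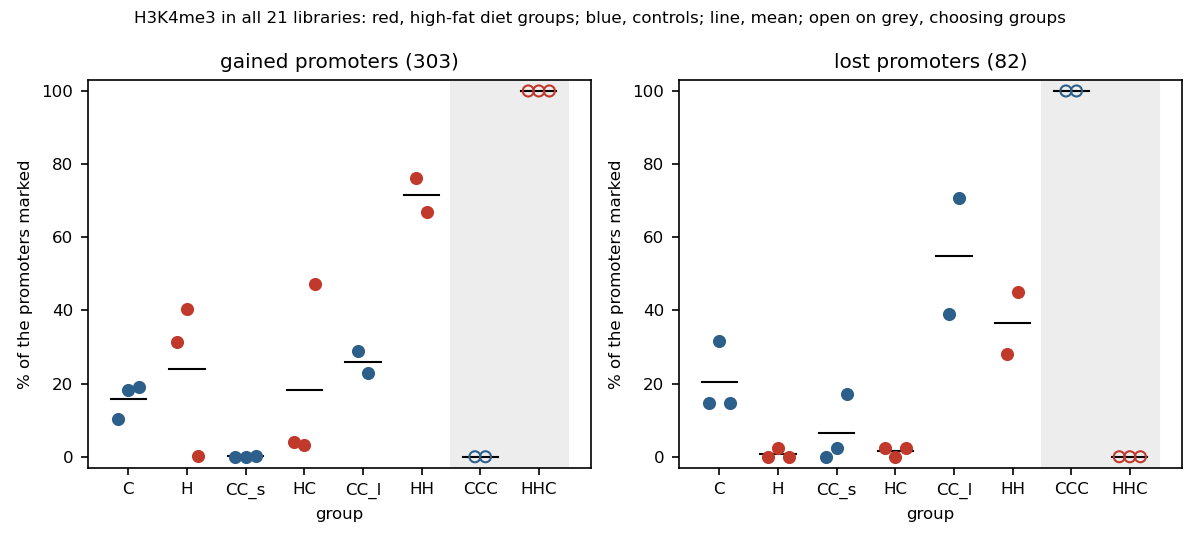
Percentage of the 303 gained (left) and 82 lost (right) promoters marked in each of the 21 H3K4me3 libraries by group, with red for high-fat diet groups, blue for controls and black lines for means. Open symbols on grey are the groups that chose the promoters; gained promoters reach 76.2% and 67% in HH and 29% and 22.8% in CC_l.

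The lists of 3 other marks from HHC and CCC, which the rule did not use, were read at the same promoters. Per the methods, the marks were assayed on nuclei of the same fat depots, so these lists are not independent animals. H3K27ac, the acetylation of active promoters and enhancers, covered 68%, 25.4% and 62.4% of gained promoters in HHC 1, 2 and 3 and 5.61% and 0% in CCC 1 and 3 (difference 49.1 percentage points, two-sided exact permutation test over 10 splits, p = 0.2, adjusted p = 0.4 over 6 tests). H3K4me1, the mark of enhancers and of the flanks of promoters, covered 60.4%, 17.5% and 57.8% against 3.63% and 8.25% (exact permutation test, p = 0.2, adjusted p = 0.4). Every HHC library lay above both CCC libraries for both marks, HHC 2 being the lowest of the 3, but 3 libraries against 2 cannot give a p under 0.1. The same order held over all promoters, with H3K27ac at 52.9%, 52.3% and 53.6% in HHC and 50.8% and 17.7% in CCC and H3K4me1 at 41.7%, 41.4% and 51.4% against 31.5% and 37.9%. H3K27me3, the mark of Polycomb repression, covered 35.3%, 37.6% and 30.4% against 39.9% and 35.3% (exact permutation test, p = 0.5), and the groups overlapped. H3K27ac was present in 3 of 3 HHC and 0 of 2 CCC libraries at 52 of the 303 gained promoters and at 2.32% of all promoters, and the sparse CCC 3 list described below enters this count. The genes named by the rule among the 52 were *Itgb2*, *Pirb*, *Selplg*, *Tlr6*, *Il10ra*, *H2-Eb1*, *Cd37*, *Arhgap25*, *Pecam1*, *Fcgr3*, *Ctss*, *Ifi205*, *Ifitm5* and *Ccl17*.

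At lost promoters the groups overlapped in H3K27ac and H3K4me1. H3K27ac covered 18.3%, 45.1% and 14.6% in HHC and 58.5% and 24.4% in CCC, and H3K4me1 25.6%, 64.6% and 18.3% against 61% and 79.3%. H3K27me3 covered 45.1%, 37.8% and 47.6% against 34.1% and 32.9%, so that HHC lay above CCC (exact permutation test, adjusted p = 0.4). Over all promoters H3K27me3 covered 26%, 20.5% and 21.8% in HHC and 20.9% and 17.9% in CCC. The HHC mean was thus higher there too (22.8% against 19.4%), although the groups overlapped. The H3K27ac list of CCC 3 was sparse, covering 29.6% of promoters marked in 5 of 5 H3K4me3 libraries against 84% to 85.8% in the other 4, which bears on every H3K27ac value of CCC 3. Without CCC 1 the H3K27ac difference at lost promoters changed sign, to 1.28 percentage points. At *Acaca*, H3K27ac was present in 1 of 3 HHC and 2 of 2 CCC libraries and H3K4me1 in 2 of 3 and 2 of 2, and at *Sycp2* and *Higd1b* H3K27ac stayed in 2 and 3 of 3 HHC libraries.

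**Figure D5:**
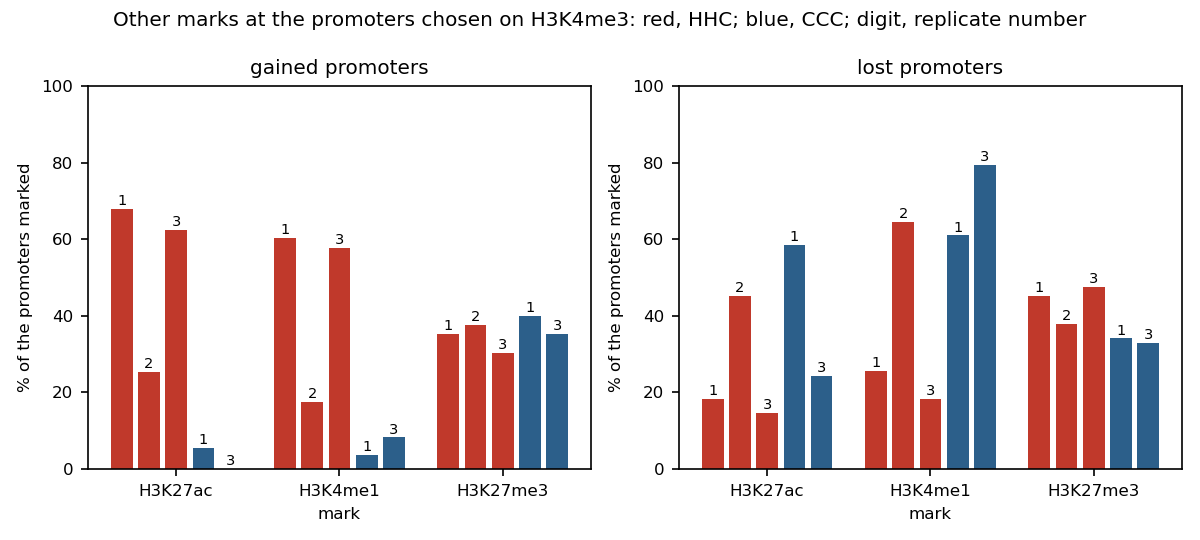
Percentage of gained (left) and lost (right) promoters with a peak of H3K27ac, H3K4me1 or H3K27me3 in each HHC (red) and CCC (blue) library, with the replicate number above each bar. At gained promoters the HHC bars reach 68%, 25.4% and 62.4% for H3K27ac and the CCC bars 5.61% and 0%, whereas H3K27me3 overlaps.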

How the data were processed

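CUT&Tag libraries of adipocyte nuclei were compared as peak lists. The authors trimmed reads with Trim Galore 0.6.6, aligned them to mm10 with Bowtie2 2.4.4, used SAMtools 1.13 and bedtools 2.30, and called peaks in each library with SEACR 1.3 (stringent, threshold 0.01), per the labels and methods. The deposited lists give for each peak its total signal and highest coverage signal, with no scaling between libraries. Read depth is unknown, so no count test was possible. The methods describe a blacklist filter, whether the deposited lists had passed it was not tested, and none was used here. Groups came from titles, since the treatment field differed from the title for 4 H3K4me3 libraries and for 0 of the other marks. Replicates were separate biological samples per the methods.

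Start sites of 21851 protein-coding genes were taken from the basic set of GENCODE vM21 (GRCm38), and 36 lists were used and 48 were not. The full set of 54359 start sites was counted first. The basic set was taken after those counts were seen, because its numbers of genes and start sites matched an earlier processing of these data, and the full set was kept as an alternative. Heights (log2, relative to the library median of the promoters marked in 5 of 5) and breadth were tested in limma 3.58.1 (R 4.3.3, trend and robust options, Benjamini-Hochberg adjustment, threshold 0.05), and single values by exact permutation in Python 3.11.15. On simulated data with 200 changed promoters, the height test recovered 131 (a log2 change of 2.0, 5 false calls) and the breadth test 8 (a change of 40 percentage points). Named genes were the 12 gained and 8 lost promoters with the highest peaks, members of 51 lists, and the 10 promoters with the smallest p in each direction. Of the listed symbols 3 were not found, and a few named genes are not reported here. The members and lists were chosen with earlier results of these data known. Start-site windows and the added families were chosen after seeing the data. Other windows, overlaps, peak sets, scalings, group labels and left-out libraries were tried.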

Additional observations from a re-analysis of the deposited data

How the results depend on the processing

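Of the alternative values of the comparisons, 147 kept their direction and side of the threshold (counts within 1.5 times), 28 moved, 3 were weaker and 2 reversed. Many of the 147 come from permutation tests over 10 splits or fewer, which cannot give a p under 0.1. Their side of the threshold was fixed, so only their direction could change, and the tally is no measure of stability for them. With the treatment field as group label, gained and lost promoters numbered 93 and 32, gained and lost start-site windows 16 and 7, height calls 1, and the differences in other H3K4me3 libraries were -0.657 (reversed) and -4.51 percentage points. Leaving out each library in turn gave 360 to 473 gained and 90 to 243 lost promoters, 73 to 108 gained and 19 to 63 lost start-site windows, and 17 to 512 height calls. It gave differences in other H3K4me3 libraries of 18.1 to 22.6 percentage points for gained and -18.7 to -9.57 for lost promoters (20.5 and -9.57, neither passing the threshold, without CCC replicate 3), and H3K27ac differences at lost promoters of -28.8 to 1.28 (reversed without CCC replicate 1). Height calls numbered 1 with total signal, 1 with no trend and no robust option, and 106 when scaled to the median of all peaks, where the median of all promoters was -0.12 in place of 0.02, 104 calls were higher and 30 of the 50 calls were shared. Breadth gave 12 calls with a 1000 bp window and 23 with promoters marked in at least 1 library. With a 1000 bp window 276 of the 303 gained and 63 of the 82 lost promoters were kept, with a 500 bp window 249 and 53, and with the strongest 75% of peaks 200 and 28. The full annotation, added after seeing the data, gave 301 gained and 84 lost promoters (291 and 80 kept, *Acaca* not). The causes were not tested, except that fewer libraries make the presence rules easier to meet.

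Only replicates 1 and 3 share numbers between the groups, and their deviations correlated at 0.0515 and -0.223. With 2 CCC libraries, the deviations of CCC 1 and CCC 3 from their mean are always opposite. The correlations therefore cannot show whether libraries with the same number were paired. With the replicate block there were 407 gained and 243 lost promoters, a difference of 250 marked promoters, 513 height calls (49 of the 50 shared) and 0 breadth calls. Limits are 3 libraries against 2, unknown depth, an HHC library with no peak at *Adipoq*, and treatment fields that disagree with titles.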

Other observations

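Markers were also counted in the remaining H3K4me3 libraries. The obese HH 2 and HH 3 libraries marked 17 and 18 of 22 macrophage promoters and 9 and 9 of 11 MHC class II promoters, against 6 and 5 macrophage and 6 and 5 MHC class II promoters in CC_l 1 and CC_l 2, and all 4 libraries marked 20 of 20 adipocyte promoters. H 1 and H 2 marked 14 and 16 macrophage promoters and H 3 marked 1, and the list of H 3 held 11249 peaks. Of the 303 gained promoters, 33 were marked in 0 of these 16 libraries, and the median was 4 of 16.

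*Gm10722*, a predicted gene near the start of chromosome 9, was among the promoters with a higher relative height in HHC (difference 4.46, SE 0.88, adjusted p = 0.0228 in limma), with log2 relative heights between 9.0 and 11.11 in HHC and of 5.58 and 4.96 in CCC 1 and 3. These heights lie far above the library medians in both groups. No blacklist was used here, so a mapping artefact at this stretch was not tested, and the call is not read as a promoter difference.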
